A study of Catharanthus roseus with 35 samples.

Results

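Unsorted protoplasts of Catharanthus roseus leaves (total protoplasts, 3 samples) were compared with intact leaves (2 samples), which are 5 of the 35 samples of the series. Protoplasts are cells freed from their walls by enzymes, and the total protoplasts are the cell suspension from which idioblast and common mesophyll protoplasts were sorted in the same experiment. All counted genes entered the comparison (35722 genes), and no measured value was used to choose them. Plants of the cultivar Little Bright Eye were kept in a growth chamber at 25 °C with 16 h of light, and both groups came from fully developed leaves of flowering plants, taken between the second and the fourth leaf pair and pooled from several plants. Each replicate had its own group of plants. The study's methods describe the leaf samples as matching the protoplast samples and state that central veins were removed from leaves, but no source used here ties a leaf replicate number to a protoplast replicate number. The labels name no transgene, drug or hormone for any of them. For RNA extraction the RNeasy Plant Mini kit served for leaves and the RNeasy Micro kit for protoplasts, and Smart-seq2 was the library method of all 5 samples. The groups therefore differed at once in wall digestion, in the time and handling before extraction, in the cells that were released and in the RNA kit, and these differences cannot be told apart. A further leaf sample is not analysed here, the study's methods stating that its RNA was degraded.

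C. roseus leaves make monoterpenoid indole alkaloids (MIAs) in a pathway divided among cell types. The first iridoid steps are known from the internal phloem-associated parenchyma (IPAP), the last iridoid steps and the coupling with tryptamine from the epidermis, and the last vindoline steps from idioblasts and laticifers. Idioblasts are scattered mesophyll cells that store alkaloids, and laticifers are elongated cells with latex-like contents. Removal of the wall exposes plant cells to osmotic, wounding and oxidative stress, to which plants are known to respond with chaperones, glutathione transferases, WRKY factors and defence proteins. In bulk RNA, fewer cells of a type and less RNA per cell cannot be told apart.

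The leaf samples had total counts of 13169700 and 10263533, and the total protoplast samples 11955674 to 15877878. Levels are given as CPM, counts scaled to a common library total, after TMM scaling, which corrects for differences in RNA composition between libraries. Similarity and 2-fold gaps between samples were computed here on log2 of CPM plus 1, which shrinks differences at low CPM. Across 17533 genes, the total protoplast samples had a Pearson r of 0.972 to 0.977 with each other. Between any pair of them, 6.41% to 7.64% of genes differed at least 2-fold. The 2 leaf samples had an r of 0.862 and differed at least 2-fold for 26.5% of genes, and a leaf sample and a total protoplast sample had an r of 0.621 to 0.667. Leaf replicate 2 stood further than leaf replicate 1 from the leaf pair 4 samples of plants grown indoors in another experiment. Its r with them was 0.807 to 0.819, against 0.886 to 0.9 for leaf replicate 1. Leaf pair 1 was not compared in this way, and the part that leaf age had in this gap was not tested. Where leaving out a leaf sample moved the printed fold change of a called gene by over 1.5 times, its log2 value without leaf replicates 1 and 2 follows it in that order, except where the remaining leaf sample had 3 counts or fewer.

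Total protoplasts and leaves differed in 50.1% of the 17533 tested genes. These genes, referred to as called, passed edgeR's quasi-likelihood test with an adjusted p no higher than 0.05 and moved by 1 or more in log2 fold change (FC). In total protoplasts, 3949 genes were up-regulated (22.5%) and 4830 were down-regulated (27.5%). All 3 total protoplast samples lay above both leaf samples, or below both, in 70.0% of the genes tested, and in 3938 of the up-regulated and 4619 of the down-regulated genes. Median log2 FC was 2.13 among the up-regulated and -2.39 among the down-regulated genes. A log2 FC of at least 8 was found for 129 up-regulated genes, and one of -8 or less for 97 down-regulated genes. Of the up-regulated genes, 236 had no count in either leaf sample, and of the down-regulated genes 131 had no count in any total protoplast sample.

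The split between directions depends on how the libraries are scaled. Over all tested genes the median log2 FC was -0.17 with TMM and -0.62 when libraries were scaled by size alone, and the share of calls that were up-regulated was then 31.1% in place of 45%. With size alone 2867 genes were up-regulated and 6359 down-regulated. Without leaf replicate 1 the numbers were 4093 and 4381, and without leaf replicate 2 they were 4497 and 4431. With 2 leaf samples, the spread of the leaves was estimated together with that of the sorted protoplasts of the same experiment. Replicates of the protoplast groups lay closer together than the 2 leaf samples, so SEs and adjusted p-values may be too small. The study left these leaf samples out of its own model of differential expression because they varied more within their group.

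The called genes held most of the counts. Genes up-regulated in total protoplasts took 14% and 13.9% of the counts of the leaf samples and 63% to 63.9% of the counts of the total protoplast samples. Down-regulated genes took 47.6% and 43.3% of leaf counts but 5.18% to 5.97% of total protoplast counts. The genes were chosen for this difference, so these shares describe its size only. The same genes took 60% to 62.5% and 5.1% to 7.5% of the counts of sorted mesophyll protoplasts, and 13.9% to 15.3% and 45.1% to 47.2% of those of leaf pair 4 indoors, whose plants and library kit (TruSeq) were different.

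**Figure D1:**
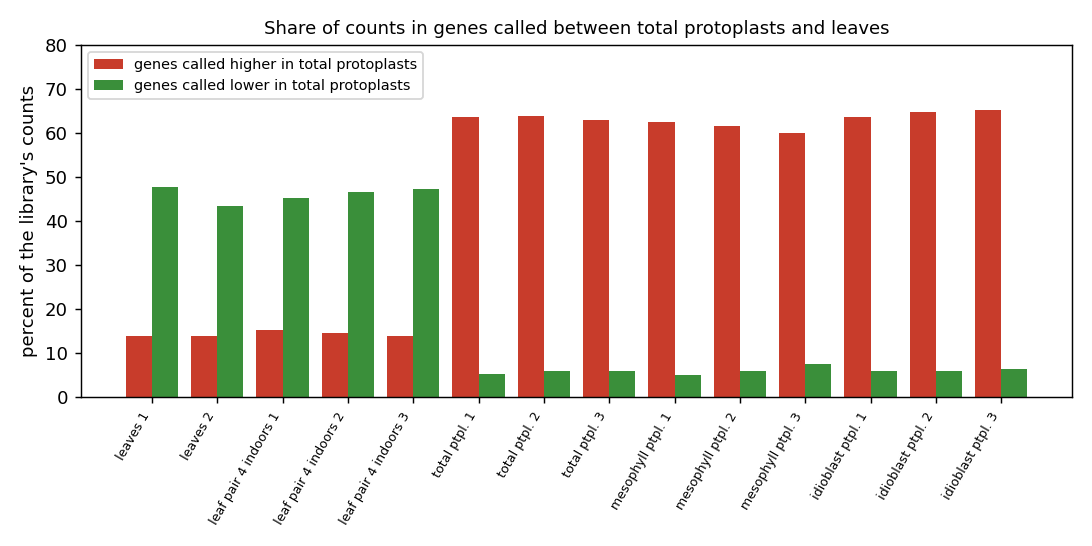
Bars give the percent of each library's counts in genes called higher (red) and lower (green) in total protoplasts than in leaves, with a pair of bars per sample of leaves, leaf pair 4 indoors and total, mesophyll and idioblast protoplasts (ptpl.). Red bars are at 13.9% to 15.3% in the 5 leaf libraries and at 60% to 65.1% in the 9 protoplast libraries, and the genes were called from the leaf and total protoplast bars themselves.

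Genes of MIA biosynthesis, transport and regulation were down-regulated more often than up-regulated. Of the 68 tested genes in the study's list, 31 fell and 11 rose, against 27.5% and 22.5% of all tested genes, and their median log2 FC was -1.15. Without leaf replicate 2 the counts were 25 down-regulated and 16 up-regulated, and without leaf replicate 1 they were 34 and 12. The early iridoid, late vindoline and side-branch genes contributed 17 of the decreases, and the increases included 3 zinc finger repressors of the pathway.

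**Figure D2:**
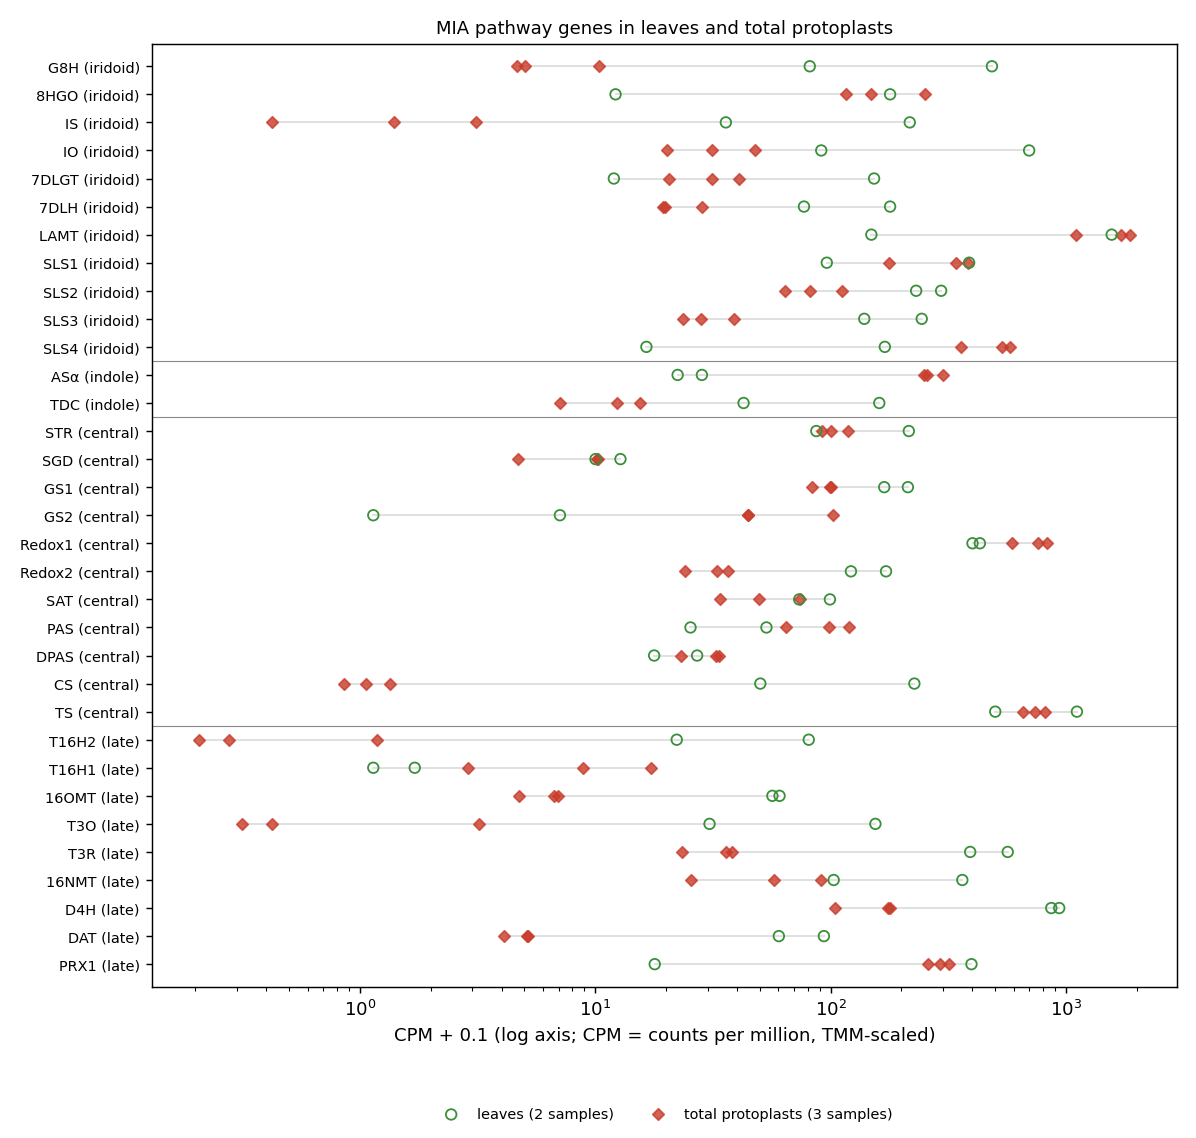
Each row is a MIA pathway gene, with its CPM plus 0.1 on a log axis in the 2 leaf samples (open circles) and the 3 total protoplast samples (filled diamonds), ordered by pathway stage. The diamonds lie left of both circles for IS, CS, T16H2, T3O and DAT, right of them for ASα and GS2, and overlap them for LAMT, STR, SGD and TS.

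The early iridoid genes, which are markers of IPAP cells, fell for 4 of 6 members and rose for none. Geraniol 8-hydroxylase (G8H), which starts the iridoid branch, had 81.5 and 485 CPM in the leaves and 4.94, 10.3 and 4.55 CPM in the total protoplasts (log2 FC -5.48 ± 0.66 SE, -6.22 and -3.64 without leaf replicates 1 and 2, adjusted p = 5.84e-05). Iridoid synthase (IS), which closes the iridoid ring, had 35.8 and 217 CPM in the leaves and 0.322, 3.02 and 1.3 CPM in the total protoplasts (log2 FC -6.37 ± 1.16, -7.12 and -4.52 without leaf replicates 1 and 2, adjusted p = 0.000868). For both genes the lower leaf sample was above the highest total protoplast sample. Iridoid oxidase (IO) had 91.2 and 698 CPM against 20.1, 47.5 and 31.4 CPM (log2 FC -3.64 ± 0.79, -4.44 and -1.49 without leaf replicates 1 and 2), and this call was lost without leaf replicate 2. The hydroxylase 7DLH, which acts on 7-deoxyloganic acid, had 77 and 179 CPM against 19.4, 28.4 and 19.7 CPM (log2 FC -2.56 ± 0.33, -3.02 and -1.8 without leaf replicates 1 and 2). The groups overlapped for the remaining members, the oxidoreductase gene 8HGO and the glucosyltransferase gene 7DLGT. 8HGO had 12.1 and 179 CPM in the leaves and 116, 253 and 148 CPM in the total protoplasts (log2 FC 0.79 ± 0.77, adjusted p = 0.4). Summed over the 6 genes, the leaf samples held 310 and 1910 CPM and the total protoplast samples 181 to 383 CPM, so the size of the decrease rests on leaf replicate 2. Without that sample 3 of the 6 genes were called lower and 1 higher, with a median log2 FC of -1.64 in place of -3.1.

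The genes that make secologanin and strictosidine in the epidermis did not move together. Of 8 epidermal genes 1 rose, 3 fell and 4 were not called. LAMT, the loganic acid methyltransferase, had 149 and 1566 CPM in the leaves and 1104, 1720 and 1872 CPM in the total protoplasts (log2 FC 0.81 ± 0.68, adjusted p = 0.328). The leaf samples thus differed from each other more than the groups did, and without leaf replicate 2 LAMT was called higher with a log2 FC of 3.37. Secologanin synthase has 4 copies in the list, whose counts are uncertain because close copies can share reads. SLS4 rose, from 16.4 and 170 CPM to 536, 576 and 358 CPM (log2 FC 2.33 ± 0.73, 1.49 and 4.88 without leaf replicates 1 and 2, adjusted p = 0.0175), a call lost in the fit on the 5 compared samples and in the test against 2-fold. SLS2 fell, from 231 and 295 CPM to 63.9, 81.7 and 112 CPM (log2 FC -1.66 ± 0.41), a call lost in the test against 2-fold. SLS3 fell as well (log2 FC -2.72 ± 0.38). SLS1 overlapped between the groups, with 96.3 and 388 CPM in the leaves and 177 to 382 CPM in the total protoplasts.

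On the indole side, the genes before and after tryptophan moved in opposite directions. ASα, the anthranilate synthase subunit that commits chorismate to tryptophan, rose from 22.3 and 28.3 CPM to 249, 258 and 301 CPM (log2 FC 3.37 ± 0.24, adjusted p = 2.1e-06). Tryptophan decarboxylase (TDC), which makes tryptamine, fell from 42.6 and 161 CPM to 6.98, 15.4 and 12.3 CPM (log2 FC -3.18 ± 0.53, -3.83 and -1.9 without leaf replicates 1 and 2, adjusted p = 0.000471). Neither gene overlapped between the groups. Strictosidine synthase (STR), which couples tryptamine with secologanin, had 86.9 and 215 CPM in the leaves and 100, 91.9 and 118 CPM in the total protoplasts (log2 FC -0.6 ± 0.33, adjusted p = 0.138), and strictosidine glucosidase (SGD) had 9.93 and 12.7 CPM against 10.2, 4.62 and 10.1 CPM (adjusted p = 0.427). Both overlapped between the groups, although STR was called lower without leaf replicate 1.

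Between strictosidine and tabersonine, 3 of 11 tested genes fell, 1 rose and 7 were not called. Catharanthine synthase (CS) had the largest decrease, from 50.2 and 227 CPM to 0.966, 1.24 and 0.758 CPM (log2 FC -7.16 ± 0.73, -7.85 and -5.66 without leaf replicates 1 and 2, adjusted p = 1.88e-05). Redox2, a reductase on the way to stemmadenine, fell from 172 and 122 CPM to 24, 32.9 and 36.5 CPM (log2 FC -2.28 ± 0.28). CS and its sister cyclase therefore parted, as tabersonine synthase (TS) had 1114 and 501 CPM in the leaves and 655, 813 and 739 CPM in the total protoplasts, inside the leaf range (log2 FC -0.18 ± 0.29, adjusted p = 0.623). The geissoschizine synthase copies also parted. GS2 rose from 6.98 and 1.04 CPM to 44.4, 44.7 and 102 CPM (log2 FC 3.91 ± 0.72, 5.89 and 3.17 without leaf replicates 1 and 2), while GS1 fell from 213 and 169 CPM to 99.3, 100 and 83.4 CPM (log2 FC -1.06 ± 0.18), a call that was lost without leaf replicate 1, with the replicate number as a block (log2 FC -1) and in the test against 2-fold. Redox1 passed the test but not the fold threshold (log2 FC 0.76 ± 0.25, adjusted p = 0.0212). Among the uncalled members, PAS, which oxidises stemmadenine acetate, lay above both leaf samples in every total protoplast sample (log2 FC 1.22 ± 0.5, adjusted p = 0.0559).

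The vindoline genes were down-regulated almost throughout, with 7 of 9 late genes lower and 1 higher and a median log2 FC of -3.33. Tabersonine 16-hydroxylase 2 (T16H2), the first step from tabersonine, had 22.1 and 80.7 CPM in the leaves and 0.107, 0.178 and 1.08 CPM in the total protoplasts (log2 FC -6.87 ± 0.84, -7.51 and -5.62 without leaf replicates 1 and 2, adjusted p = 0.000161). The methyltransferase 16OMT fell from 56.5 and 60.6 CPM to 6.55, 6.84 and 4.65 CPM (log2 FC -3.33 ± 0.46). T3O, the tabersonine 3-oxidase, fell from 30.5 and 155 CPM to 0.322, 3.11 and 0.217 CPM (log2 FC -6.24 ± 1.12, -6.95 and -4.62 without leaf replicates 1 and 2), and its partner reductase T3R from 392 and 566 CPM to 23.2, 38 and 35.7 CPM (log2 FC -3.94 ± 0.44). In each of these genes every total protoplast sample lay below both leaf samples. The N-methyltransferase 16NMT came closest to overlap, with 103 and 363 CPM against 25.5, 91.4 and 57.3 CPM (log2 FC -2.06 ± 0.63, -2.69 and -0.85 without leaf replicates 1 and 2). It lost its call without leaf replicate 2, in the fit on the 5 compared samples and in the test against 2-fold. T16H1, a second tabersonine 16-hydroxylase, rose from 1.61 and 1.04 CPM to 2.79, 8.79 and 17.1 CPM (log2 FC 2.78 ± 0.85, adjusted p = 0.016), but was not called without leaf replicate 2 or without total protoplast replicate 3. The peroxidase gene PRX1, whose enzyme is thought to couple catharanthine with vindoline, had 397 and 17.8 CPM in the leaves and 259 to 319 CPM in the total protoplasts. Without leaf replicate 1 its log2 FC was 3.99.

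The idioblast and laticifer markers D4H and DAT, which carry out the last steps to vindoline, both fell. D4H had 867 and 937 CPM in the leaves and 104, 178 and 175 CPM in the total protoplasts (log2 FC -2.61 ± 0.47, adjusted p = 0.000781). DAT had 60.2 and 93.6 CPM in the leaves and 5.05, 4 and 5.09 CPM in the total protoplasts (log2 FC -4.08 ± 0.36, adjusted p = 8.15e-06). The summed level of both was 927 and 1030 CPM in the leaves, 109 to 182 CPM in the total protoplasts, 1357 to 3454 CPM in sorted idioblast protoplasts and 47.6 to 150 CPM in sorted mesophyll protoplasts. Total protoplasts were thus below leaves and below idioblast protoplasts in these markers, and within or slightly above the range of mesophyll protoplasts. Whether idioblasts were fewer among the released cells was not tested.

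Genes of the branches that lead away from vindoline fell for 6 of 11 tested members and rose for 1. The vincadifformine 19-hydroxylase V19H had 1.68 and 1.66 CPM in the leaves and no count in any total protoplast sample, which is at least 16.6-fold lower when the zero is replaced by 3 counts for the whole group. The tetrahydroalstonine synthase genes fell together, THAS from 6.51 and 5.9 CPM to 0.322, 0.799 and 0 CPM (log2 FC -4 ± 0.72), THAS3 from 60.1 and 64.5 CPM to 6.23, 21.2 and 11.3 CPM (log2 FC -2.32 ± 0.57) and THAS2 from 169 and 139 CPM to 84.6, 70.5 and 71.6 CPM (log2 FC -1.07 ± 0.22), the last call being lost without leaf replicate 1, with the replicate block (log2 FC -0.98) and in the test against 2-fold. The serpentine synthase gene SS and the hydrolase gene HL3 were called lower with both leaf samples but not without leaf replicate 2. SS had 50 CPM in that sample and 4.96 CPM in leaf replicate 1. HL4, another hydrolase gene, rose from 9.19 and 9.22 CPM to 33.4, 41.9 and 28 CPM (log2 FC 1.86 ± 0.33). Without leaf replicate 2 the list had 4 decreases and 1 increase and its median log2 FC was -0.71 in place of -2.32.

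Of 7 transporter genes assigned to the pathway, 3 fell and 1 rose. CrTPT2, an ABC transporter that exports catharanthine, fell from 32.1 and 95.3 CPM to 1.18, 3.64 and 2.92 CPM (log2 FC -4.67 ± 0.91, -5.23 and -3.65 without leaf replicates 1 and 2, adjusted p = 0.00132). CrNPF2.9, which moves strictosidine out of the vacuole, fell from 49 and 49.6 CPM to 4.94, 4.17 and 6.5 CPM (log2 FC -3.29 ± 0.49), and CrMATE1 fell from 196 and 206 CPM to 57.8, 49.4 and 55.6 CPM (log2 FC -1.93 ± 0.21). The iridoid glucoside importers differed among themselves. CrNPF2.5 had 1.88 and 5.8 CPM in the leaves and 1.72, 1.69 and 0.65 CPM in the total protoplasts (log2 FC -1.54 ± 1.26, adjusted p = 0.313). CrNPF2.4 rose from 83.6 and 128 CPM to 171, 421 and 343 CPM (log2 FC 1.5 ± 0.46, adjusted p = 0.0169), although 4 of 14 alternatives did not call it. CrNPF2.6 had 19.5 and 170 CPM in the leaves, a range that held all 3 total protoplast samples, and was called higher without leaf replicate 2.

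The transcription factors of the pathway moved in both directions, with 5 of 17 tested genes up-regulated and 5 down-regulated and a median log2 FC of 0.13 (-0.32 with size scaling). The zinc finger repressors ZCT1, ZCT2 and ZCT3 all rose. ZCT2 had 0.134 and 0.518 CPM in the leaves and 518, 543 and 610 CPM in the total protoplasts (log2 FC 10.78 ± 0.52, 10 without leaf replicate 1, adjusted p = 3.3e-07), and ZCT1 rose from 0.604 and 1.55 CPM to 450, 413 and 614 CPM (log2 FC 8.84 ± 0.46, 8.26 and 9.62 without leaf replicates 1 and 2). ZCT3 was already counted in leaves, at 39.8 and 151 CPM, and reached 511, 494 and 838 CPM (log2 FC 2.63 ± 0.51, 1.99 and 3.93 without leaf replicates 1 and 2). WRKY1, known to act on TDC, rose from 37.9 and 14.7 CPM to 123, 201 and 140 CPM (log2 FC 2.51 ± 0.37, 3.36 and 2.01 without leaf replicates 1 and 2). GBF2, a G-box binding repressor of STR, had a log2 FC of 1.14 ± 0.22, a call lost with size scaling, without leaf replicate 1 and in the test against 2-fold. Among activators, ORCA4 had 1.54 and 9.53 CPM in the leaves and no count in any total protoplast sample, at least 46.5-fold lower. Bis1, a bHLH activator of the iridoid genes, fell from 1.95 and 13.4 CPM to 0.537, 0.444 and 0 CPM (log2 FC -4.53 ± 1.14, -5.32 and -2.54 without leaf replicates 1 and 2), a call lost without leaf replicate 2. CrGATA1, an activator of vindoline genes in light, fell from 56.8 and 45.4 CPM to 10.1, 9.86 and 4.65 CPM (log2 FC -2.68 ± 0.44), and PIF1, which represses it, fell from 197 and 177 CPM to 46.8, 66.7 and 47.7 CPM (log2 FC -1.85 ± 0.22). MYC was called lower, but its groups overlapped, the call was lost in 6 of 14 alternatives, the replicate block among them (log2 FC -1), and without leaf replicate 2 the log2 FC was 0.39. ORCA3 (0.872 and 33 CPM in the leaves, 3.76, 2.93 and 3.14 CPM in the total protoplasts) and ORCA2 (log2 FC 1.99 ± 0.9, adjusted p = 0.0795) were not called.

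Markers of other leaf cell types were read beside these genes, and they did not move in one direction. Phloem protein 2-9 (CATHA_18236) fell from 23.7 and 19.7 CPM to 1.18, 1.51 and 0.65 CPM (log2 FC -4.31 ± 0.83), while a PP2 domain gene (CATHA_11653) had 36.7 and 7.46 CPM in the leaves and 8.05, 12.3 and 10.3 CPM in the total protoplasts and was not called. Of these phloem genes 1 was thus called, and summed over both the leaves held 60.4 and 27.1 CPM and the total protoplasts 9.23 to 13.9 CPM. Protodermal factor 1 like (CATHA_15809), an epidermal surface gene, fell from 15.4 and 11.9 CPM to 1.61, 2.31 and 1.41 CPM (log2 FC -2.97 ± 0.43). The homeobox gene GLABRA 2 (CATHA_21035) had 37 and 12.5 CPM in the leaves and 36.3, 29.3 and 36.4 CPM in the total protoplasts and overlapped between the groups. Other genes of the cuticle and epidermal identity list rose, among them an ACR4-like receptor kinase (CATHA_2232), with no count in the leaves and 1.93, 0.799 and 2.38 CPM in the total protoplasts, and an epidermal patterning factor-like gene (CATHA_15486), from 10.2 and 3.42 CPM to 65.2, 72.6 and 91.8 CPM (log2 FC 3.43 ± 0.38, 4.45 and 2.89 without leaf replicates 1 and 2). In that list 8 of 16 genes rose and 3 fell. Of the mesophyll markers, carbonic anhydrase (CATHA_26688) had 25.8 and 471 CPM in the leaves and 99.8, 163 and 152 CPM in the total protoplasts. The main Rubisco activase gene (CATHA_702) had 121 and 368 CPM in the leaves and 193, 235 and 191 CPM in the total protoplasts. Neither was called, while a minor Rubisco activase gene (CATHA_711) was called higher. The part that cell composition had in the results on the MIA genes was not tested.

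Descriptions of other genes came from the study's supplementary tables, which list mainly genes higher in idioblasts than in mesophyll protoplasts, a co-expression module and newly modelled genes. They cover 1082 tested genes, of which 33.3% were up-regulated and 20.9% down-regulated. These shares are the background for every list below that was formed by words in the descriptions. A gene may be in several lists, and the study's table of transcription factors is set beside all tested genes.

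**Figure D3:**
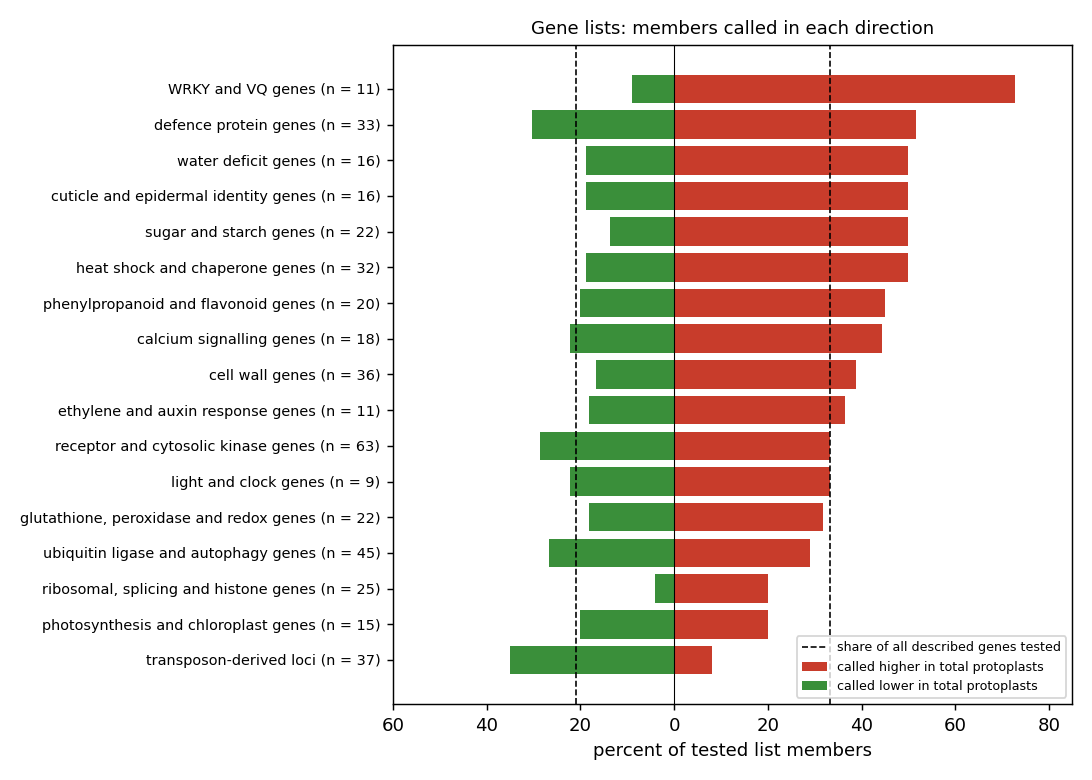
Bars give the percent of tested members of each list that were called higher (red, to the right) or lower (green, to the left) in total protoplasts than in leaves, with the number tested after each name. Dashed lines mark the shares of all described genes, 33.3% higher and 20.9% lower, and the WRKY and VQ genes reach 72.7% higher while the transposon-derived loci have 8.11% higher and 35.1% lower.

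Heat shock and chaperone genes rose for 16 of 32 tested members and fell for 6, with a median log2 FC of 1.48. Their summed level was 869 and 855 CPM in the leaves and 4634 to 5076 CPM in the total protoplasts. Heat shock protein 83 (CATHA_28453), of the HSP90 chaperone family, had no count in either leaf sample and 12.6, 4.35 and 8.44 CPM in the total protoplasts, at least 67-fold higher. An HSP70 gene (CATHA_9472) rose from 0.47 and 0 CPM to 116, 74.6 and 48.9 CPM (log2 FC 8.09 ± 0.89, 7.36 without leaf replicate 2), and a class II small heat shock protein of 17.3 kDa (CATHA_20705) rose from 2.62 and 5.28 CPM to 491, 405 and 236 CPM (log2 FC 6.55 ± 0.51, 6.12 and 7.15 without leaf replicates 1 and 2). Small heat shock proteins hold unfolding proteins soluble, and 7 of the 11 tested rose. The member with the most counts, the chloroplast unfoldase ClpD (CATHA_9437), rose from 80 and 56 CPM to 2166, 2545 and 2436 CPM (log2 FC 5.09 ± 0.31, adjusted p = 8.17e-07). All 3 heat stress transcription factors of the study's factor table rose, B-3-like (CATHA_15127) from 0.47 and 0 CPM to 36.6, 34.5 and 34.1 CPM (log2 FC 6.9 ± 0.72, 6.17 without leaf replicate 2) and A-3 and A-4a by log2 FCs of 1.87 and 1.52. Multiprotein-bridging factor 1c (CATHA_17916), a co-activator of heat responses in Arabidopsis, rose from 0.0671 and 0.414 CPM to 166, 147 and 119 CPM (log2 FC 9.3 ± 0.52, 8.37 without leaf replicate 1). Members that fell included both heat shock factor-binding protein genes, which restrain heat stress factors (CATHA_17761, log2 FC -1.89 ± 0.41, and CATHA_17358, log2 FC -1.07 ± 0.28), and dnaJ 11 (CATHA_19736), from 317 and 129 CPM to 49.6, 45.8 and 77.4 CPM. Summed over the list, sorted mesophyll samples held 4506 to 5349 CPM, sorted idioblast samples 5111 to 5516 CPM and leaf pair 4 indoors 572 to 634 CPM.

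The described WRKY and VQ genes had the highest share of increases of the lists, 8 of 11 tested, with 1 decrease and a median log2 FC of 3.73. WRKY factors bind W-box elements in wound and defence genes, and VQ proteins are their partners. The WRKY gene CATHA_28440 rose from 0.671 and 0.207 CPM to 217, 372 and 407 CPM (log2 FC 9.38 ± 0.67, adjusted p = 2.1e-06). CATHA_32152 and the VQ gene CATHA_32758 had no count in either leaf sample and reached 7.09 to 15.4 CPM and 12.9 to 16.7 CPM, at least 95.3-fold and 117-fold higher. Another VQ gene, CATHA_5502, rose from 1.74 and 4.66 CPM to 207, 220 and 235 CPM (log2 FC 6.08 ± 0.45, 5.53 and 6.95 without leaf replicates 1 and 2). Split by name, 4 of 6 WRKY genes and 4 of 5 VQ and sigma factor binding genes rose. The decrease was that of CATHA_19503, with 26.8 and 9.11 CPM in the leaves and 3.86, 8.26 and 7.47 CPM in the total protoplasts (log2 FC -1.5 ± 0.48). This call was lost in 4 of 14 alternatives, and without leaf replicate 1 the log2 FC was -0.52 and the list had no decrease. Of the 8 WRKY factors in the study's table of transcription factors 3 rose and 2 fell, with a median log2 FC of -1.15. CATHA_24905, which the study names as a WRKY factor, was called lower (log2 FC -1.68) and is not in the described list. The direction thus depends on which WRKY genes are counted. The factor table and the descriptions behind the list both come from the study's work on these samples, and they share genes such as CATHA_28440. Neither is independent evidence of a direction.

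Calcium signalling genes rose for 8 of 18 members and fell for 4. Glutamate receptor-like channels carry wound signals in Arabidopsis. CATHA_34161 had 2 counts in the leaves together and 11.6, 22 and 12.7 CPM in the total protoplasts, a ratio of 195 (95% counting interval 53.6 to 1614). CATHA_2294, of the same family, rose from 1.07 and 2.18 CPM to 56, 91.6 and 53.4 CPM (log2 FC 5.35 ± 0.49). An EF-hand protein of 39 kDa (CATHA_12027) rose from 24.8 and 75.6 CPM to 430, 498 and 523 CPM (log2 FC 3.22 ± 0.46, 2.64 and 4.26 without leaf replicates 1 and 2). The polcalcin gene CATHA_26129 was called lower only through leaf replicate 2, which had 88.1 CPM against 3.09 CPM in leaf replicate 1. Kinase genes, as a broad group, rose for 21 of 63 members and fell for 18. Examples are the RIPK-like kinase CATHA_27623, from 0 and 0.829 CPM to 31.7, 57.3 and 70.7 CPM (log2 FC 7.16 ± 0.86, 5.95 without leaf replicate 1), and an inactive leucine-rich repeat receptor kinase (CATHA_22432), from 42.9 and 11 CPM to 0, 0.178 and 2.27 CPM (log2 FC -5.09 ± 1.26, -3.78 and -5.75 without leaf replicates 1 and 2).

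Glutathione, peroxidase and redox genes rose for 7 of 22 members and fell for 4, shares close to those of all described genes. Their summed level nevertheless rose from 480 and 495 CPM in the leaves to 9924 to 10783 CPM in the total protoplasts, mostly through a single gene. The glutathione S-transferase gene CATHA_5516, whose enzyme family conjugates glutathione to electrophiles, had 24.1 and 194 CPM in the leaves and 9311, 8822 and 8383 CPM in the total protoplasts (log2 FC 6.28 ± 0.81, 5.47 and 8.5 without leaf replicates 1 and 2, adjusted p = 9.19e-05). A second transferase gene, CATHA_823, rose from 0.671 and 1.76 CPM to 497, 347 and 472 CPM (log2 FC 8.5 ± 0.51, 7.92 and 9.31 without leaf replicates 1 and 2). A laccase (CATHA_6074) and a class III peroxidase (CATHA_21291) had no count in the leaves, and their levels of 8.05 to 20.8 CPM and 2.15 to 6.28 CPM were at least 124-fold and 38.4-fold higher. Other peroxidases fell. CATHA_17553 went from 13.3 and 11.3 CPM to 1.07, 0.888 and 0 CPM (log2 FC -4.24 ± 0.94), and CATHA_21741 had 161 counts in the leaves against 3 in the total protoplasts, a ratio of 65.1 (21.9 to 319). The chloroplast thioredoxin-like gene CATHA_14309 fell from 215 and 14.5 CPM to 3.76, 7.19 and 4.33 CPM (log2 FC -4.52 ± 0.79, -1.54 and -5.41 without leaf replicates 1 and 2).

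Of 33 tested defence protein genes, 17 were up-regulated and 10 down-regulated. The largest increase among the described genes with at least 10 CPM was that of a Kunitz trypsin inhibitor (CATHA_18632), a protein that blocks digestive proteases of herbivores. It had no count in either leaf sample and 602, 477 and 474 CPM in the total protoplasts, at least 4219-fold higher. A polygalacturonase inhibitor (CATHA_8113), which blocks fungal pectin-degrading enzymes, rose from 1.68 and 4.45 CPM to 372, 364 and 539 CPM (log2 FC 7.09 ± 0.52, 6.54 and 7.96 without leaf replicates 1 and 2). The pathogen-inducible alpha-dioxygenase (CATHA_35615), which makes oxylipins, rose from 21.4 and 172 CPM to 598, 1573 and 1582 CPM (log2 FC 3.63 ± 0.8, 2.82 and 5.84 without leaf replicates 1 and 2). Major latex proteins of the list account for 4 of the decreases. The study names other major latex proteins among its top idioblast genes that the list does not hold, so these 4 do not stand for the whole family. The most abundant, CATHA_15668, fell from 3162 and 3022 CPM to 284, 379 and 303 CPM (log2 FC -3.31 ± 0.28, adjusted p = 5.6e-06). CATHA_15659 had 18.3 and 15.1 CPM in the leaves and no count in the total protoplasts, at least 170-fold lower, and CATHA_15667 fell from 42.7 and 45 CPM to 0.215, 0 and 0.217 CPM. In sorted idioblast protoplasts CATHA_15668 averaged 4490 CPM, whereas CATHA_15659 and CATHA_15667 averaged 0.451 and 1.08 CPM, so of these genes only the first was abundant there. These genes are neighbours in name and may share reads. The list also holds a cystathionine beta-synthase domain gene (CATHA_16079), caught by the letters thionin in its description, which fell from 350 and 176 CPM to 18.5, 19.7 and 18.5 CPM.

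Ubiquitin ligase and autophagy genes went both ways, 13 of 45 up-regulated and 12 down-regulated, but polyubiquitin rose strongly. CATHA_22993 went from 1673 and 2592 CPM to 9355, 10523 and 10327 CPM (log2 FC 2.19 ± 0.32, adjusted p = 0.000213), and CATHA_23291 from 164 and 82.3 CPM to 2143, 2718 and 2328 CPM (log2 FC 4.24 ± 0.42, 4.83 and 3.84 without leaf replicates 1 and 2). Polyubiquitin genes encode repeats of the tag that marks proteins for the proteasome, and their repeated sequence makes the split of reads between copies uncertain. A RING-type E3 ligase (CATHA_14119) had no count in the leaves and 51.2, 103 and 77.9 CPM in the total protoplasts, at least 648-fold higher. An F-box protein with leucine-rich repeats (CATHA_17443) fell from 361 and 79.8 CPM to 25.9, 15.5 and 26.8 CPM (log2 FC -3.31 ± 0.59, -1.84 and -4.01 without leaf replicates 1 and 2). Without leaf replicate 1 the list had 16 increases and 7 decreases, and without leaf replicate 2 it had 17 and 14.

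Cell wall genes rose for 14 of 36 members and fell for 6, and wall-modifying enzymes were found in both directions. A pectinesterase (CATHA_9254), which removes methyl groups from pectin, had no count in the leaves and 26.3, 29.1 and 26.6 CPM in the total protoplasts, at least 225-fold higher. The xyloglucan endotransglucosylase/hydrolase CATHA_12762, which cuts and rejoins xyloglucan chains, rose from 9.05 and 20.6 CPM to 902, 1375 and 944 CPM (log2 FC 6.13 ± 0.44, 5.66 and 6.86 without leaf replicates 1 and 2), and 2 other members of this family rose with log2 FCs of 5.08 and 3.75 (CATHA_3498 and CATHA_34240). Of the 5 tested members of the family 1 fell, CATHA_35013, with a log2 FC of -3.85. The glucomannan synthase gene CATHA_36752 had 2 counts in the leaves and 15.9 to 31.2 CPM in the total protoplasts. The proline-rich wall protein CATHA_12004 fell from 1118 and 818 CPM to 3.65, 7.46 and 5.74 CPM (log2 FC -7.47 ± 0.45, adjusted p = 7.8e-07). EXORDIUM like 3 (CATHA_18152) fell from 8.65 and 25.1 CPM to 0, 0.799 and 0.433 CPM, and a cellulose synthase (CATHA_11257) from 3.69 and 16.1 CPM to 0.322, 0.622 and 0.217 CPM (log2 FC -4.66 ± 1.04, -5.34 and -3.21 without leaf replicates 1 and 2). Leaf pair 4 indoors averaged 806 CPM of CATHA_12004, and mesophyll and idioblast protoplasts 0.153 and 1 CPM.

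Sugar and starch genes rose for 11 of 22 members and fell for 3. Cell wall invertase (CATHA_35751), which splits sucrose outside the cell, rose from 45 and 9.11 CPM to 3572, 4174 and 4288 CPM (log2 FC 7.17 ± 0.68, 8.75 and 6.46 without leaf replicates 1 and 2, adjusted p = 1.18e-05). A hexosyltransferase (CATHA_7984) rose from 21.6 and 20.3 CPM to 615, 554 and 363 CPM (log2 FC 4.56 ± 0.33). Beta-amylase CATHA_18104, which releases maltose from starch, fell from 448 and 367 CPM to 49.8, 54.7 and 39.4 CPM (log2 FC -3.13 ± 0.33). A sugar transporter of the SWEET family (CATHA_21421) was called lower, with 152 CPM in leaf replicate 2, 11.6 CPM in leaf replicate 1 and 6.12 to 17.4 CPM in the total protoplasts, and lost the call without leaf replicate 2. Malic enzyme (CATHA_34966) had 1836 and 117 CPM in the leaves and 1625 to 1935 CPM in the total protoplasts.

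Genes described for water deficit rose for 8 of 16 members and fell for 3, and families differed. Response to desiccation 2 (CATHA_9897) rose from 40.2 and 55.3 CPM to 870, 913 and 893 CPM (log2 FC 4.17 ± 0.29, adjusted p = 1.54e-06), and dehydrin CATHA_13610, a hydrophilic protector of membranes and proteins, from 81.1 and 181 CPM to 690, 793 and 860 CPM (log2 FC 2.52 ± 0.35, 2.07 and 3.25 without leaf replicates 1 and 2). A late embryogenesis abundant gene (CATHA_17863) had no count in the leaves and 3.97, 9.59 and 5.2 CPM in the total protoplasts, at least 53-fold higher. Both abscisic stress-ripening genes fell, CATHA_18760 from 277 and 121 CPM to 2.36, 5.5 and 5.63 CPM (log2 FC -5.5 ± 0.45, -4.77 and -5.96 without leaf replicates 1 and 2) and CATHA_18761 from 20.5 and 10 CPM to 0.107, 0.799 and 0.325 CPM (log2 FC -5.18 ± 0.69, -4.56 and -5.58 without leaf replicates 1 and 2). ERD4 (CATHA_12450) fell from 396 and 113 CPM to 18.4, 14.8 and 17.2 CPM.

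Cuticle and epidermal identity genes rose for 8 of 16 and fell for 3. The GDSL lipase CATHA_36137 rose from 9.86 and 12.5 CPM to 1322, 1689 and 1603 CPM (log2 FC 7.05 ± 0.34, adjusted p = 3.3e-07), and another GDSL esterase, CATHA_34276, fell from 70.7 and 284 CPM to 2.36, 1.33 and 0.866 CPM (log2 FC -6.91 ± 0.73, -7.57 and -5.55 without leaf replicates 1 and 2). GDSL lipases act on many esters, so the family name does not place these genes in the epidermis. Phenylpropanoid and flavonoid genes rose for 9 of 20 and fell for 4. Flavonol synthase CATHA_21954 rose from 5.37 and 149 CPM to 1121, 1264 and 1332 CPM (log2 FC 3.95 ± 0.98, 3.02 and 7.83 without leaf replicates 1 and 2), and the dehydroquinate dehydratase gene CATHA_31326, of the shikimate route to aromatic amino acids, from 4.63 and 2.8 CPM to 100, 72.2 and 89.2 CPM (log2 FC 4.49 ± 0.38). A flavonoid 3-hydroxylase (CATHA_12622) fell from 60.8 and 3 CPM to 0.537, 1.6 and 1.08 CPM (log2 FC -4.9 ± 0.95, -1.5 and -5.81 without leaf replicates 1 and 2), a call lost without leaf replicate 1. Among hormone genes, 4 of 11 ethylene and auxin genes rose and 2 fell. ACC oxidase (CATHA_22715), the ethylene-forming enzyme, rose from 1509 and 1770 CPM to 3251, 4516 and 3848 CPM (log2 FC 1.19 ± 0.26), a call lost with size scaling, without total protoplast replicate 2 and in the test against 2-fold, and the auxin importer CATHA_21964 fell from 58.6 and 47.6 CPM to 0.107, 0.533 and 2.6 CPM (log2 FC -5.67 ± 0.99).

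The described photosynthesis and chloroplast genes had 3 of 15 members higher and 3 lower. Descriptions cover mainly genes higher in idioblasts, where the study found photosynthesis genes to be lower. The list is therefore not a fair sample of photosynthesis genes. Chlorophyll b reductase (CATHA_17871), which starts chlorophyll b breakdown, fell from 200 and 47.1 CPM to 23.7, 15 and 26.3 CPM (log2 FC -2.54 ± 0.48, -1.15 and -3.22 without leaf replicates 1 and 2). A minor Rubisco activase gene (CATHA_711) had no count in the leaves and 14.5, 14.2 and 33.8 CPM in the total protoplasts, at least 167-fold higher. The sum over the list was 932 and 2380 CPM in the leaves and 2395 to 2923 CPM in the total protoplasts, and without leaf replicate 2 the counts were 7 higher and 3 lower. Light and clock genes (3 of 9 higher, 2 lower) included PIF3 (CATHA_37755), a bHLH factor degraded in light, which rose from 5.03 and 36.8 CPM to 161, 100 and 105 CPM (log2 FC 2.5 ± 0.65, 1.7 and 4.58 without leaf replicates 1 and 2). Ribosomal, splicing and histone genes had 5 of 25 higher and 1 lower. Transposon-derived loci had 13 of 37 lower and 3 higher, with a median log2 FC of -0.96. The Pol polyprotein locus CATHA_37249 fell from 48.6 and 85.8 CPM to 0.107, 0.71 and 0.108 CPM (log2 FC -7.68 ± 0.74), and without leaf replicate 2 the list had 8 lower and 2 higher. Reads of such repeated loci can belong to several copies.

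Of 87 tested transcription factors in the study's table, 21 rose (24.1%) and 23 fell (26.4%), with a median log2 FC of -0.05. These shares are near the 22.5% and 27.5% of all tested genes, which are their background because the table also holds genes without a description. Stress-related zinc finger and NAC factors were among the increases. ZAT8 (CATHA_5131) rose from 0.201 and 0.414 CPM to 119, 81.6 and 125 CPM (log2 FC 8.45 ± 0.61), and the NAC factor CATHA_26934 from 28 and 20.6 CPM to 478, 513 and 615 CPM (log2 FC 4.41 ± 0.36). The C2C2 family, which holds leaf polarity and flowering factors, fell for 4 of 8 members and rose for none. YABBY 5 (CATHA_21134), a regulator of leaf polarity, fell from 55.3 and 64.2 CPM to 1.07, 1.6 and 1.62 CPM (log2 FC -5.42 ± 0.67), and CATHA_23273 from 49.8 and 58.2 CPM to 0.966, 0.355 and 0 CPM (log2 FC -6.95 ± 0.78). An AP2 factor (CATHA_8452) fell from 21.8 and 85.4 CPM to 0.644, 0.799 and 0.758 CPM. MYB factors were balanced, 4 of 19 higher and 4 lower, and of 6 NAC factors 3 rose and 2 fell.

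Among the 15 largest increases of described genes, 12 had no count in either leaf sample. Besides those above, an O-linked N-acetylglucosamine transferase for EGF domains (CATHA_15114) reached 64.7, 46.8 and 57.2 CPM, at least 455-fold higher. A cyclic nucleotide-binding protein (CATHA_35630), a gene described as myosin heavy chain kinase B (CATHA_31124), an alpha-L-fucosidase (CATHA_26605) and a carboxylesterase (CATHA_14214) likewise had no leaf count, and were higher by factors of at least 237, 198, 171 and 108. A transmembrane protein gene (CATHA_38425) had 1 count in leaf replicate 1, 0 in leaf replicate 2 and 64.6, 62.2 and 64.3 CPM in the total protoplasts, a ratio of 1563 (95% counting interval 280 to 61762). The 15 genes averaged 1.47 CPM or less in leaf pair 4 indoors and 5.32 CPM or more in mesophyll protoplasts.

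**Figure D4:**
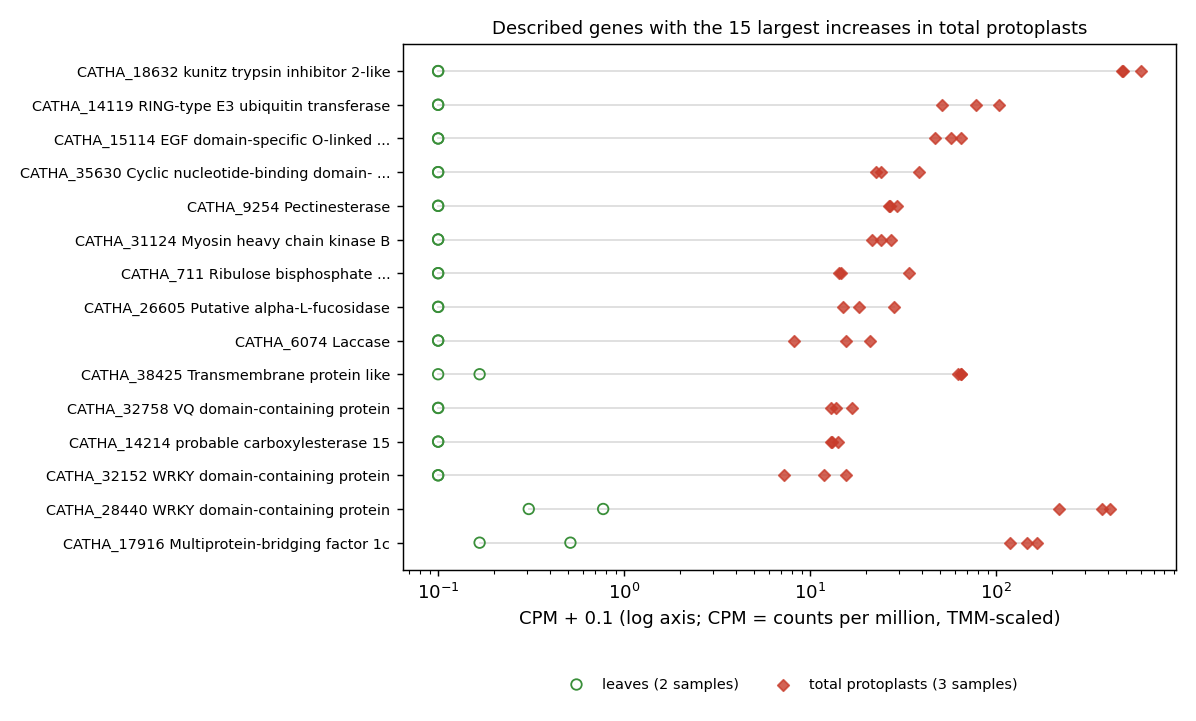
Each row is a described gene among the 15 with the largest increase in total protoplasts, with CPM plus 0.1 on a log axis in the 2 leaf samples (open circles) and the 3 total protoplast samples (filled diamonds). Circles at the left edge are samples with 0 counts, and the Kunitz trypsin inhibitor gene reaches 474 to 602 CPM in the total protoplasts.

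The largest decreases were of genes with 10 CPM or more in leaves that nearly vanished. A DUF868 gene (CATHA_21408) fell from 129 and 21.3 CPM to 0.322, 0.622 and 0.758 CPM (log2 FC -7.05 ± 0.91, -5.24 and -7.81 without leaf replicates 1 and 2). FT-interacting protein 1-like (CATHA_17098), whose Arabidopsis relative helps the flowering signal FT into the phloem, fell from 64.9 and 46.3 CPM to 0.215, 0 and 1.19 CPM (log2 FC -6.96 ± 0.9). A lysosomal Pro-X carboxypeptidase (CATHA_23144) fell from 104 and 238 CPM to 1.93, 2.13 and 1.3 CPM (log2 FC -6.62 ± 0.83, -7.07 and -5.87 without leaf replicates 1 and 2), and an oligopeptide transporter (CATHA_16487) from 250 and 150 CPM to 1.4, 3.73 and 5.3 CPM (log2 FC -5.88 ± 0.51). A DUF239 gene (CATHA_22111) and the subtilisin-like protease SBT1.6 (CATHA_11964) fell by 5.63 and 5.34 on the log2 scale. These genes were chosen among calls without overlap between the groups, so the lack of overlap is not a result.

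**Figure D5:**
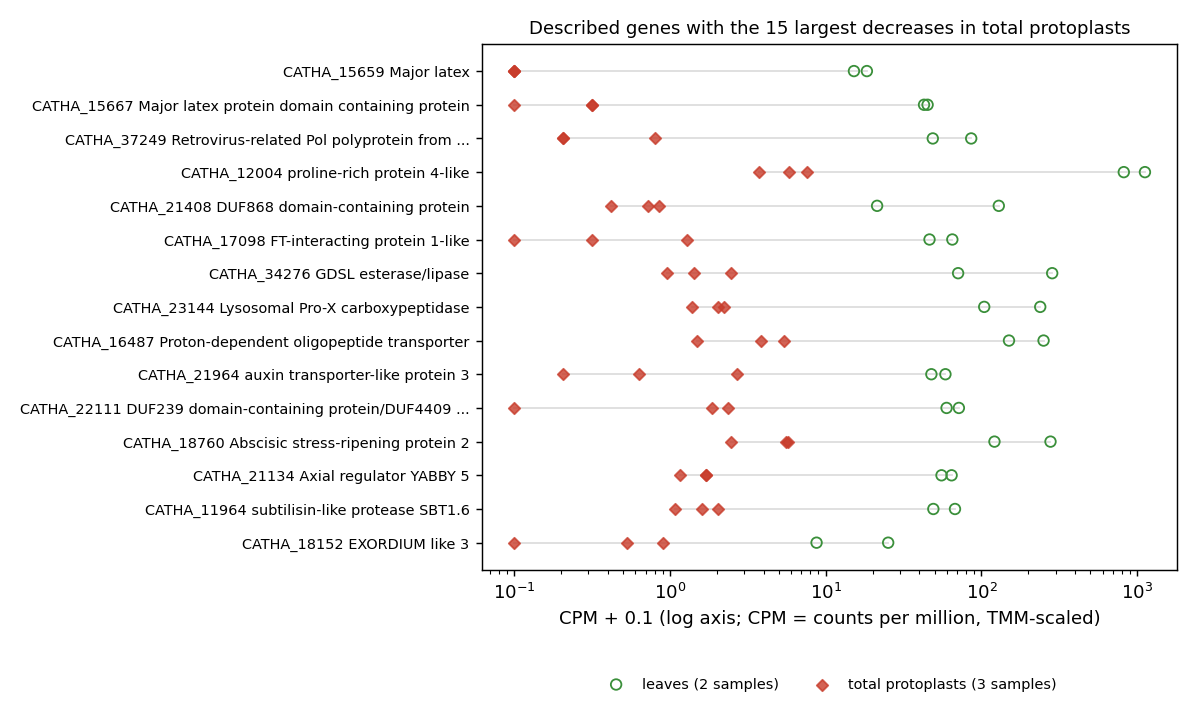
Each row is a described gene among the 15 with the largest decrease in total protoplasts, with CPM plus 0.1 on a log axis in the 2 leaf samples (open circles) and the 3 total protoplast samples (filled diamonds). Diamonds at the left edge are samples with 0 counts. No row has a diamond to the right of a circle, because genes with overlap were left out of the choice.

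The most abundant called genes show the exchange at the top of the libraries. Beside polyubiquitin, the glutathione transferase, invertase and ClpD, 2 glycosyltransferase genes rose, CATHA_22017 from 27.5 and 583 CPM to 2720, 4769 and 4156 CPM (log2 FC 3.61 ± 0.96, 2.7 and 7.12 without leaf replicates 1 and 2), a call lost in the fit on the 5 compared samples, and CATHA_15282 from 9.19 and 146 CPM to 1240, 2231 and 1715 CPM (log2 FC 4.42 ± 0.91, 3.53 and 7.53 without leaf replicates 1 and 2). An anaphase-promoting complex subunit gene (CATHA_15860) rose from 87.8 and 135 CPM to 1446, 2768 and 2475 CPM (log2 FC 4.27 ± 0.48). On the leaf side, a cupin gene (CATHA_20923) fell from 1144 and 2565 CPM to 43.7, 64.1 and 72.9 CPM (log2 FC -5 ± 0.58, -5.45 and -4.27 without leaf replicates 1 and 2), and a non-specific lipid-transfer protein (CATHA_14586), which carries lipids to the leaf surface, from 1254 and 1075 CPM to 52.1, 55.8 and 50.4 CPM (log2 FC -4.51 ± 0.55). Beta-amyrin 28-oxidase (CATHA_16918), an oxidase of triterpene synthesis, fell from 427 and 405 CPM to 7.51, 15.6 and 11.4 CPM (log2 FC -5.22 ± 0.64).

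Genes without a description in the sources used here lie above these. CATHA_12164 rose from 46.2 and 52.5 CPM to 17371, 18051 and 16286 CPM (log2 FC 8.4 ± 0.36, adjusted p = 1.68e-07), and CATHA_26799 from 72.7 and 324 CPM to 14427, 15006 and 14775 CPM (log2 FC 6.16 ± 0.63, 5.47 and 7.64 without leaf replicates 1 and 2). CATHA_26674 fell from 11635 and 5977 CPM to 341, 542 and 325 CPM (log2 FC -4.5 ± 0.33), and CATHA_4323 from 8086 and 4636 CPM to 158, 196 and 124 CPM (log2 FC -5.36 ± 0.46). They were named for having the highest mean CPM in the higher group among the called genes without a description, after their values were seen. Leaf pair 4 indoors averaged 74.3 CPM of CATHA_12164 and 4208 CPM of CATHA_26674, and mesophyll protoplasts 15371 and 247 CPM.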

How the data were processed

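For the 23 Illumina libraries the authors trimmed reads with Trimmomatic 0.39 and aligned them to the C. roseus genome with HISAT2. They deposited raw counts per gene from featureCounts 2.0.1, which were used as deposited. The counting's strand option is not given in the sources used here, so antisense, overlapping and near-identical genes are uncertain. The 12 Nanopore libraries were not used.

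Genes were filtered with filterByExpr, libraries scaled by TMM, and total protoplasts compared with leaves in edgeR 4.0.16 (R 4.3.3: robust dispersions, glmQLFit, glmQLFTest) over the 11 libraries of the sorting experiment, the 6 sorted protoplast libraries sharing the estimate of spread. P-values were adjusted by Benjamini-Hochberg, with calls at 0.05 and a log2 FC of 1. The SE is the log2 FC over the root of F. Printed CPM were TMM-scaled over 23 libraries. Where a group had 0 counts, folds are bounds computed with 3 counts for that group, and against 1 to 3 counts ratios have 95% counting intervals, which cover counting error only. Replicates came from separate groups of plants, and none were duplicates of each other. The script was tested on simulated counts with the same spread in all groups and changes in few genes. The larger spread of the leaves and changes in many genes were not covered by that test.

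Named genes are the MIA genes of the study's list, the 15 largest and 10 most abundant non-overlapping described calls in each direction (at least 10 CPM), and per list the 4 largest calls in each direction and the 2 most abundant members. Some others, such as the epidermal genes among the markers, were named after their values were seen. Members and lists were chosen with earlier results of these data known. Gene IDs were matched to RefSeq for 0 genes, so no sequences are shown. Alternatives were DESeq2 1.42.0, scalings, filters, samples and a test against 2-fold. Figures used matplotlib 3.10.9.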

Additional observations from a re-analysis of the deposited data

How the results depend on the processing

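Over the 14 alternatives, the number of up-regulated genes ranged from 2769 to 4497 and that of down-regulated genes from 3186 to 6359. The test against a fold change of 2 gave 3186 down-regulated genes in place of 4830, a number that moved because it demands a larger fold, and 2769 up-regulated genes. DESeq2 called 4030 and 5108 genes, and the fit on the 5 compared samples alone 3530 and 4167. Leaving out 1 replicate at a time gave 3579 to 4497 up-regulated and 4381 to 4632 down-regulated genes. The study's methods call leaf and protoplast samples paired, but no source used here says which replicate numbers belong together. With the replicate number as a block, 4079 and 4726 genes were called, and 3852 and 4497 of them were shared with the calls above. Same-numbered samples had correlations of 0.206 and 0.177 in their deviations from the group means, over 2 pairs. The 2 leaf samples deviate by equal and opposite amounts, so exchanging their numbers only turns the signs. These values cannot show which numbers belong together. Among the named genes the block ended the calls of GS1, THAS2, MYC and CATHA_14806 and added 3 calls, and no direction turned.

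For the named genes under 13 alternatives, 69 gene results lost their call, 54 gained one and 2911 kept it or stayed uncalled. The test against a fold change of 2, counted apart because it gives the same fold changes, did not call 21 of the named genes called in the main fit. The 3 reversals came without leaf replicate 2, where the log2 FC was 0.39 for MYC, 0.66 for CATHA_26129 and 2.01 for CrNPF2.6. Over the fits that left out 1 replicate, the log2 FC ranged from -1.95 to 0.39, from -4.19 to 0.66 and from -1.13 to 2.01 for these genes. Totals of 10263533 counts or more limit genes below about 1 CPM, where folds rest on few counts.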

Other observations

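The 2 leaf samples differed from each other in both directions. The 26.5% of genes given above used CPM plus 1, whereas the shares here used CPM alone, which also counts gaps at low CPM. Leaf replicate 2 was at least 2-fold above leaf replicate 1 in 3247 of 17533 tested genes (18.5%) and at least 2-fold below it in 2967 (16.9%). Among genes called higher in total protoplasts these shares were 19.2% and 13.3%, and among genes called lower 18.2% and 18.9%. Genes with large gaps between the leaf samples included LAMT (149 and 1566 CPM), 8HGO (12.1 and 179 CPM), carbonic anhydrase CATHA_26688 (25.8 and 471 CPM), glycosyltransferase CATHA_22017 (27.5 and 583 CPM) and, in the opposite direction, malic enzyme CATHA_34966 (1836 and 117 CPM) and PRX1 (397 and 17.8 CPM). These genes were picked after their values were seen, and the cause was not tested.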
